A study of Mus musculus with 9 samples.

Results

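The 10 genes described here make up the core of antigen presentation by the major histocompatibility complex (MHC) in mouse. They were named from known function, but with earlier results of these data known. For class I these are the heavy chains H2-K1 and H2-D1, the light chain B2m, the peptide transporter genes Tap1 and Tap2 and the loading factor gene Tapbp. For class II these are the chains H2-Aa, H2-Ab1 and H2-Eb1, and Cd74, the class II invariant chain. The set makes up 10 of 54532 genes listed, and 10 of 10 were among the 11852 genes with enough signal to be tested. Liver RNA was sequenced in 9 libraries, 3 in each of 3 groups: Cth knockout mice with 1% betaine in the drinking water (betaine-supplemented knockout), Cth knockout mice on drinking water (knockout) and wild-type mice on drinking water (wild type). Cth encodes cystathionine gamma-lyase, an enzyme of cysteine and hydrogen sulfide synthesis, and betaine is a methyl donor that turns homocysteine back into methionine. The series asks what loss of this enzyme does in chronic liver disease. No betaine was given to wild-type mice, so betaine was seen only in the absence of Cth. The labels give neither the strain, sex nor age of the mice, nor how the knockout was made, nor whether the 3 libraries of a group came from separate animals. The p-values therefore measure the spread between these libraries.

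Class I molecules are built from a heavy chain and beta-2 microglobulin, and show peptides from inside the cell to CD8 T cells. Those peptides are cut by the proteasome, carried into the endoplasmic reticulum by the Tap1-Tap2 transporter and loaded with the help of tapasin, the product of Tapbp. Nearly all nucleated cells carry class I, hepatocytes included, and interferon gamma raises it. Class II molecules show peptides taken up from outside to CD4 T cells. In liver they are known mainly from dendritic cells, Kupffer cells (the resident macrophages), B cells and sinusoidal endothelium. Cd74 holds the class II groove until a peptide replaces it.

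The values were FPKM, fragments scaled by transcript length and by a denominator per library, so levels of different genes can be set side by side. The denominators recovered from the values ranged from 13513288 to 18528082 reads and were not the library totals: they stood at 13513288 beside 15184940 recovered reads in knockout replicate 1 and at 18528082 beside 16344021 in betaine-supplemented replicate 2. How the authors set them is not given in the sources used here, and it bears on every difference between libraries. By this scale 3 reads in a transcript of 1 kb equalled 0.162 to 0.222 FPKM. A member had between 167 and 31857 reads in a library. Cth itself stood at 0.309 to 0.781 FPKM in the betaine-supplemented knockout and 0.278 to 0.770 FPKM in the knockout, against 219 to 285 FPKM in wild type. Of the 9 libraries, wild type replicate 3 was unlike the rest, with 26.6 FPKM of the X-inactivation transcript Xist, at most 0.0124 elsewhere, and with 0 reads of 4 Y-linked genes that had 1512 to 2393 reads in every other library. Calls of the members and the main fitted differences that rest on it are given with and without it. The tests of marker lists, the correlations, the within-group SDs and the genes most alike are given only with it. So are the counts over pathway lists and over the chromosome 17 stretch, and the differences of some other named genes. All 8 hepatocyte markers were present, with a summed level of 32010 to 44160 FPKM in the betaine-supplemented knockout, 39460 to 51020 FPKM in the knockout and 46340 to 66440 FPKM in wild type.

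Of the 10 genes, 8 lie on chromosome 17 (mm10), in the mouse MHC. Tapbp (chr17:33915899-33929292) and H2-K1 (chr17:33996017-34000347) lie at one side. Then follow Tap1 (chr17:34187553-34197225), Tap2 (chr17:34203527-34216321), H2-Ab1 (chr17:34257689-34269419), H2-Aa (chr17:34282744-34287823) and H2-Eb1 (chr17:34305867-34316674), and at the far side H2-D1 (chr17:35262730-35267499). B2m lies on chromosome 2 (chr2:122147686-122153083). Psmb9, an immunoproteasome subunit gene, starts beside Tap1 on the other strand (chr17:34181987-34187764).

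The promoter windows of 6 members are printed because these genes carry the results that follow: Tap1 and B2m are the members whose groups separated, H2-K1 and H2-D1 are the paired heavy chains, which varied little, and H2-Aa and H2-Eb1 are class II chains that varied together. Each window is the RefSeq sequence of GRCm38.p6 from 250 bases before to 50 bases after an annotated start, read 5′ to 3′ on the gene's own strand (for H2-K1, the upstream start of 2). Capitals mark matches, on either strand, to the CCAAT box, the kappa B core GGGNNTTNC, the interferon-stimulated response element core GAAANNGAA or the cyclic AMP response element core TGACGT.
Tap1 (chr17:34187306-34187605, plus strand): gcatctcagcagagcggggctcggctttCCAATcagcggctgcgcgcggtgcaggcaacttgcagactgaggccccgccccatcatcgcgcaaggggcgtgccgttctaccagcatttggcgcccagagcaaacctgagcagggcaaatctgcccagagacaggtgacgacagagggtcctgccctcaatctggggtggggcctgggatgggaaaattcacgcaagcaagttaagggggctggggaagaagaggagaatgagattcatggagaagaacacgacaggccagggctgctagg
B2m (chr2:122147437-122147736, plus strand): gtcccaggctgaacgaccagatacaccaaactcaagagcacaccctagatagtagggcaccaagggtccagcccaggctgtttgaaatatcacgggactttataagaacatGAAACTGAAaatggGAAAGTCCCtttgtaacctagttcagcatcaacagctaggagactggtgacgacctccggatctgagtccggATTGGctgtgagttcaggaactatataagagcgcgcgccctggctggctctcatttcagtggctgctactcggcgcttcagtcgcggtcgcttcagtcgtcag
H2-K1 (chr17:34000298-34000597, minus strand): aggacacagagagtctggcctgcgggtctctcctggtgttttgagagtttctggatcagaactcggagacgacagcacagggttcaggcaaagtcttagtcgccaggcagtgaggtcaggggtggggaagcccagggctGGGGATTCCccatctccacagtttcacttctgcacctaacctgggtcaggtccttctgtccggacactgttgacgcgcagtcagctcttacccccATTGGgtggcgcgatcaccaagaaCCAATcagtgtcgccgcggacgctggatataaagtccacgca
H2-D1 (chr17:35262844-35263143, plus strand): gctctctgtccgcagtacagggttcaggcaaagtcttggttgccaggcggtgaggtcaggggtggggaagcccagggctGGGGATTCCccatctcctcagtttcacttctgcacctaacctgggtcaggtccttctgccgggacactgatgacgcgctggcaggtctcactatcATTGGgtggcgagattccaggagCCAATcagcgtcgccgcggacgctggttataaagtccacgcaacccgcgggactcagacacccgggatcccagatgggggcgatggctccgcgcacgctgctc
H2-Aa (chr17:34287774-34288073, minus strand): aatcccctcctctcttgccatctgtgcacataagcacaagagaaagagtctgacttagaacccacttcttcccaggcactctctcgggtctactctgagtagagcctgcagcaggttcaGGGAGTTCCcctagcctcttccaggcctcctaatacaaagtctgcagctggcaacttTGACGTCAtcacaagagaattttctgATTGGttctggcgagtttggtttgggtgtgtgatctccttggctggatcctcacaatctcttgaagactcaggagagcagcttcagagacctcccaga
H2-Eb1 (chr17:34305617-34305916, plus strand): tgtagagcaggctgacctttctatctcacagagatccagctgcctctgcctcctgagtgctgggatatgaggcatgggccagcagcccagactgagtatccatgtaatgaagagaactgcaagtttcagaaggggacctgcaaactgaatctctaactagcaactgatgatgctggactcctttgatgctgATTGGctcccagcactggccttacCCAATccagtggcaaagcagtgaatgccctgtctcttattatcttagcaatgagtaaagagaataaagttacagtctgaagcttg

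The heavy chain windows were alike, with 176 of 240 bases identical (73.3%) in their best ungapped alignment. Both hold GGGGATTCC, the kappa B match, 111 bases before the annotated start in H2-K1 and 171 bases before it in H2-D1, and both hold the CCAAT box once on each strand. The B2m window holds the response element match GAAACTGAA at 139 bases before the start and a kappa B match on the other strand, GAAAGTCCC, at 125 bases. The H2-Aa window holds a kappa B match at 131 bases before the start and the cyclic AMP core on both strands, overlapping, at 74 and 72 bases. The CCAAT box stood in all 7 member windows searched, Tapbp included, against 37.4% of 32851 windows of that length over all genes. The kappa B core occurred in 15.2% of those windows, the response element core in 8.56% and the cyclic AMP core in 7.51%. The gamma-activated site TTCNNNGAA, in 8.30% of windows, gave no match in the 7 member windows. The Tap1 window shares 275 of its bases with the Psmb9 window, since these genes start side by side and run apart. H2-Ab1 and Tap2 have no window in the table used. Cd74 was not searched, since chromosome 18, where it lies, was left out. A match describes letters and is no evidence of binding.

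The members covered a wide span of levels. The mean over 9 libraries was highest for B2m, at 1862 FPKM, above 99.7% of tested genes, followed by H2-K1 at 598 FPKM and H2-D1 at 265 FPKM. Cd74 averaged 60.2 FPKM, Tapbp 25.1, H2-Eb1 22.3, H2-Ab1 19.4 and H2-Aa 16.5 FPKM. Tap2 and Tap1 were near the middle of tested genes, at 4.05 and 3.95 FPKM. B2m, H2-K1, H2-D1 and Cd74 kept this order without overlap between neighbours in any of the 9 libraries. From Tapbp down to H2-Aa neighbours changed order between libraries, and so did Tap2 and Tap1, so the order of neighbours there is not set by these data. H2-Eb1 was above H2-Aa in all 9 libraries, at a ratio that varied by 1.18-fold.

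**Figure D1:**
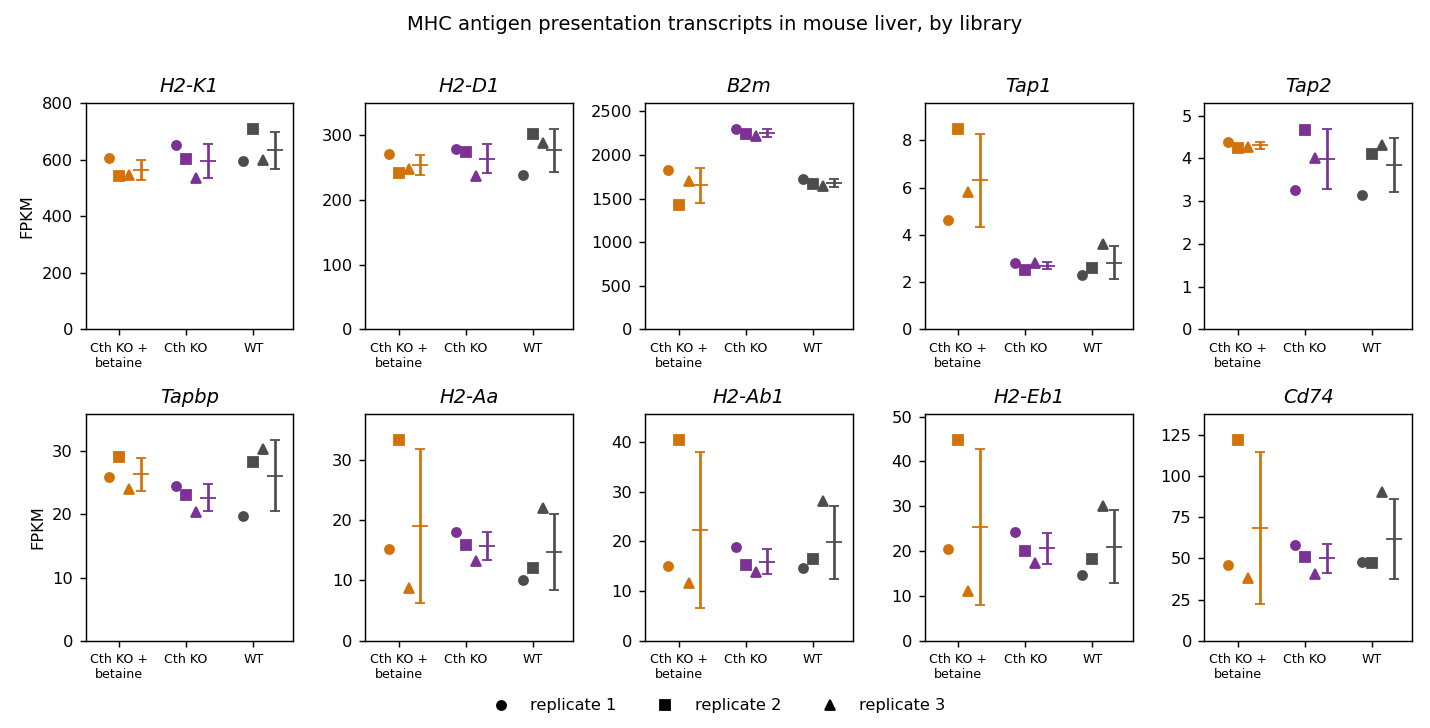
Level of each of the 10 genes in FPKM (vertical axis, from 0, own scale per gene) in the 3 libraries of each group, with the mean and SD beside them. B2m was high in all 3 knockout libraries (2213 to 2299 FPKM), Tap1 was high in all 3 betaine-supplemented libraries (4.63 to 8.49 FPKM), and the 4 class II genes were highest in betaine-supplemented replicate 2.

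The class I heavy chains, which hold the peptide and meet the T cell receptor, did not separate the groups. H2-K1 had 606, 541 and 548 FPKM in the betaine-supplemented knockout, 653, 602 and 534 FPKM in the knockout, and 595, 709 and 598 FPKM in wild type. H2-D1 had 271, 242 and 248 FPKM in the betaine-supplemented knockout, 279, 274 and 238 FPKM in the knockout, and 239, 302 and 288 FPKM in wild type. For both genes the groups overlapped in every comparison, and the highest of the 9 libraries was wild type replicate 2 and the lowest was knockout replicate 3. The fitted log2 fold changes of H2-K1 were -0.09 for knockout minus wild type (95% interval -0.41 to 0.23), -0.08 for betaine-supplemented minus untreated knockout (-0.39 to 0.25) and -0.16 for betaine-supplemented knockout minus wild type (-0.48 to 0.16). Those of H2-D1 were -0.07 (-0.38 to 0.25), -0.05 (-0.37 to 0.26) and -0.12 (-0.43 to 0.20), in the same order of comparisons. Adjusted p-values over the 3 comparisons lay between 0.471 and 0.852 for these genes (limma, Benjamini-Hochberg over all tested genes, as for every adjusted p below). The ratio of H2-K1 to H2-D1 within a library ran from 2.08 to 2.49 over the 9 libraries. The heavy chain calls depended on scaling: with each library rescaled to TPM, which moved the median of all tested genes to -0.36 for knockout minus wild type, H2-K1 stood at -0.51 (adjusted p = 0.0111) and H2-D1 at -0.49 (adjusted p = 0.0235). For betaine-supplemented minus untreated knockout the same rescaling gave 0.29 for H2-K1 and 0.31 for H2-D1, beside 0.33 for the median of all tested genes. Quantile normalization, with a median of all genes of -0.01 for knockout minus wild type, gave -0.42 for H2-K1 (adjusted p = 0.0445) and -0.39 for H2-D1 (adjusted p = 0.0786) in that comparison. Since heavy chain genes share sequence, 9.63% of the 50-base stretches of H2-K1 and 12.8% of those of H2-D1 also occur in other genes, and reads there may have been split between them.

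B2m, the light chain shared by all class I molecules, was the member that stood apart in the knockout. Its level was 1823, 1430.0 and 1706 FPKM in the betaine-supplemented knockout, 2299, 2244 and 2213 FPKM in the knockout, and 1728, 1668 and 1644 FPKM in wild type. All 3 knockout libraries lay above all 6 others, and the betaine-supplemented and wild-type ranges overlapped. The mean was 1653 ± 202 FPKM in the betaine-supplemented knockout, 2252 ± 43.6 FPKM in the knockout and 1680 ± 43.3 FPKM in wild type (SD, n = 3 each). The fitted difference for knockout minus wild type was 0.42 ± 0.14 on the log2 scale (SE; fold 1.34), with an unadjusted p of 0.0145 and an adjusted p of 0.0543, so B2m missed the threshold of 0.05. Without wild type replicate 3 it was 0.41 with an adjusted p of 0.0855. Without betaine-supplemented replicate 1 or 2 the adjusted p was 0.0393 or 0.0350, below the threshold. For betaine-supplemented minus untreated knockout the difference was -0.45 ± 0.14 (fold 0.730, unadjusted p = 0.0102, adjusted p = 0.127), again with groups that did not overlap. Both comparisons use the same 3 knockout libraries. Betaine-supplemented knockout minus wild type gave -0.03 ± 0.14 (adjusted p = 0.904).

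Transcript length moved with the B2m result. The exons of B2m span 860 bases, and 400 tested genes within 1.2-fold of that length had a median log2 difference of 0.58 for knockout minus wild type (quartiles 0.16 and 0.94) and of -0.29 for betaine-supplemented minus untreated knockout. Over all tested genes the median difference for knockout minus wild type was 0.35 in the shortest length class, 0.01 in the middle class and -0.25 in the longest class, each class holding 3949 or 3950 genes. With each library's trend on exon length removed, B2m stood at 0.00 for knockout minus wild type (adjusted p = 0.987) and at -0.21 for betaine-supplemented minus untreated knockout (adjusted p = 0.289). Rescaling to TPM also gave 0.00 for knockout minus wild type (adjusted p = 0.987), beside a median of -0.36 over all tested genes, and quantile normalization gave 0.06 (adjusted p = 0.711). The ratio of B2m to each heavy chain is free of library scaling. B2m over H2-K1 was 3.01, 2.64 and 3.12 in the betaine-supplemented knockout, 3.52, 3.73 and 4.14 in the knockout, and 2.91, 2.35 and 2.75 in wild type. B2m over H2-D1 was 6.50 ± 0.514 in the betaine-supplemented knockout, 8.58 ± 0.635 in the knockout and 6.15 ± 0.939 in wild type (SD, n = 3 each). Both ratios were higher in all 3 knockout libraries than in any other library, so light and heavy chain levels did not keep 1 ratio across the groups. With the length trend removed the knockout minus wild type differences stood nearer to each other, at 0.00 for B2m, -0.15 for H2-K1 and -0.18 for H2-D1, beside 0.42, -0.09 and -0.07 without that step. With 3 libraries against 3 an exact permutation test on such a ratio cannot go below a two-sided p of 0.10, so none is given.

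**Figure D2:**
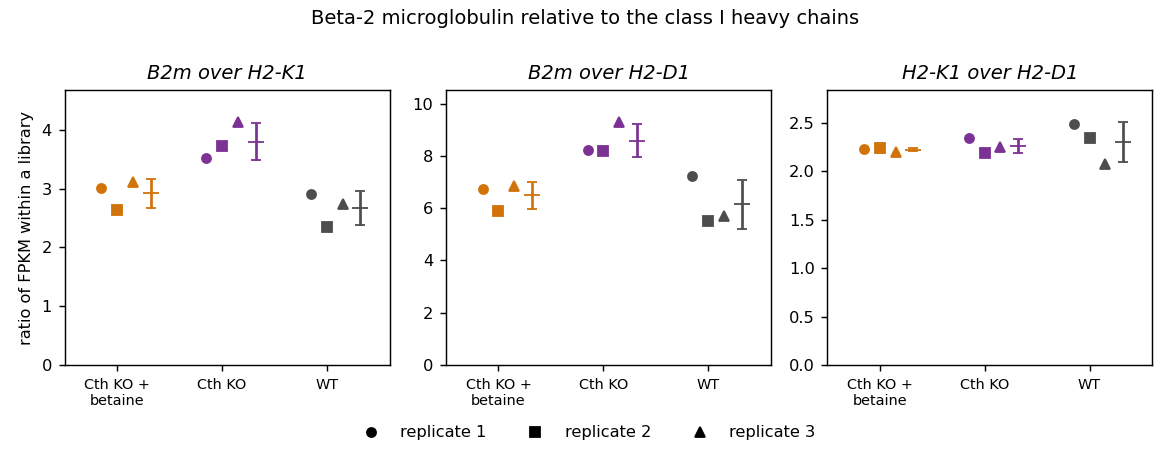
Ratio of FPKM between the class I light chain gene B2m and the heavy chain genes H2-K1 and H2-D1, and between the heavy chains (vertical axis, from 0), in each library with the group mean and SD. B2m over H2-K1 was 3.52 to 4.14 in the knockout and at most 3.12 in the other groups, while the ratio of the heavy chains stayed between 2.08 and 2.49 in all 9 libraries.

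Among the genes that supply peptides to class I, Tap1 separated the betaine-supplemented knockout from both other groups. Tap1, which encodes a chain of the peptide transporter, had 4.63, 8.49 and 5.82 FPKM in the betaine-supplemented knockout, 2.80, 2.51 and 2.80 FPKM in the knockout, and 2.28, 2.62 and 3.59 FPKM in wild type. The lowest betaine-supplemented library lay above the highest of the other 6, and replicate 2 was the highest. Against wild type, Tap1 rose by 1.01 ± 0.21 on the log2 scale (fold 2.02, adjusted p = 0.0210) and was the only member called in any comparison. Without wild type replicate 3 this rise was 1.17 (adjusted p = 0.0140). The call was lost without betaine-supplemented replicate 3 (0.0648), without wild type replicate 1 (0.0670) and without wild type replicate 2 (0.0591), all adjusted p-values, while the difference itself stayed between 0.792 and 1.197 with any single library left out. It was also lost with no filter on low genes (adjusted p = 0.0570), after rescaling to TPM (0.0641) and with only the 6 libraries of the compared groups in the fit (0.0675). Against the untreated knockout the difference was 1.05 ± 0.21 (fold 2.07, unadjusted p = 0.000726, adjusted p = 0.0837), which missed the threshold. It passed without wild type replicate 3 (adjusted p = 0.0441), without betaine-supplemented replicate 1 (1.24, adjusted p = 0.0269) and in TPM (1.46, adjusted p = 0.0283). Knockout minus wild type gave -0.04 ± 0.21 for Tap1 (adjusted p = 0.906).

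Tap2, the partner chain in the same transporter, showed no such separation. It had 4.40, 4.25 and 4.26 FPKM in the betaine-supplemented knockout, 3.27, 4.68 and 4.01 FPKM in the knockout, and 3.14, 4.10 and 4.31 FPKM in wild type, and the groups overlapped. The log2 difference was 0.11 for betaine-supplemented minus untreated knockout (95% interval -0.24 to 0.46) and 0.15 for betaine-supplemented knockout minus wild type (-0.19 to 0.50). The Tap1 to Tap2 ratio was 1.05, 1.995 and 1.36 in the betaine-supplemented knockout, 0.856, 0.536 and 0.697 in the knockout, and 0.727, 0.638 and 0.833 in wild type. Tapbp had 26.0, 29.1 and 24 FPKM in the betaine-supplemented knockout, 24.5, 23.1 and 20.4 FPKM in the knockout, and 19.8, 28.3 and 30.4 FPKM in wild type. Its groups overlapped in every comparison, with adjusted p-values between 0.446 and 0.929. Of the Tapbp exon bases, 24.9% are also covered by a gene on the other strand, Gm19412, and of the Tap2 exon bases 14.1% by Gm15821. The labels do not state strand-specific counting, so reads of such partners cannot be told apart.

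Psmb9, which starts next to Tap1 and encodes a catalytic immunoproteasome subunit, had levels much like those of Tap1. It stood at 4.51, 8.17 and 5.17 FPKM in the betaine-supplemented knockout, 3.40, 4.31 and 2.55 FPKM in the knockout, and 1.86, 2.32 and 3.40 FPKM in wild type. All 3 betaine-supplemented libraries lay above the other 6, and it rose by 1.08 ± 0.26 against wild type (adjusted p = 0.0325). Without wild type replicate 3 this rise was 1.28 (adjusted p = 0.0191). The difference against the untreated knockout was 0.70 ± 0.26 (adjusted p = 0.165). Tap1 and Psmb9 exons overlap by 212 bases on opposite strands, 3.87% of the Tap1 exon length. Psmb8, the neighbouring catalytic subunit gene between Tap1 and Tap2, had 6.81, 8.98 and 5.14 FPKM in the betaine-supplemented knockout, 6.95, 7.29 and 5.37 FPKM in the knockout, and 3.74, 5.55 and 6.91 FPKM in wild type, with overlap between all groups.

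**Figure D3:**
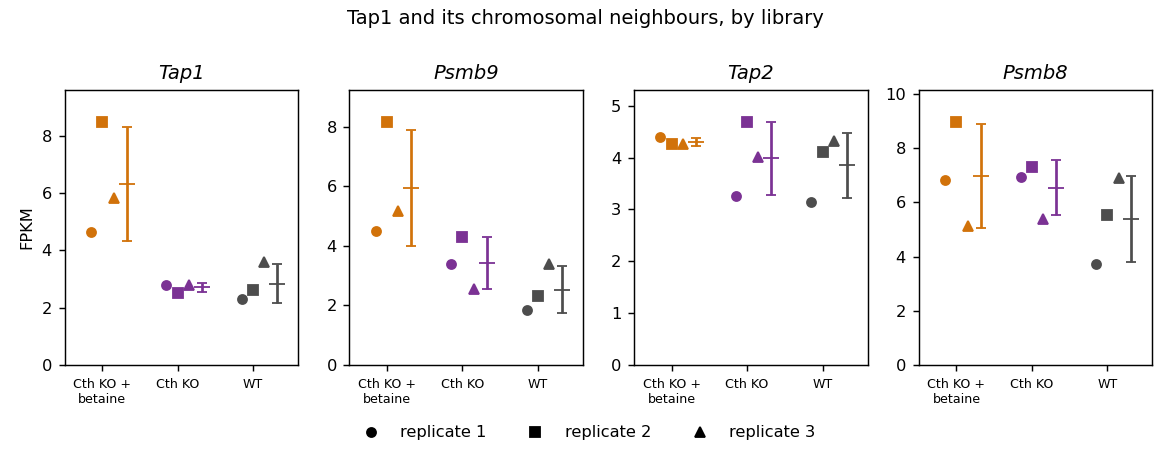
Level in FPKM (vertical axis, from 0, own scale per gene) of Tap1 and the neighbouring genes Psmb9, Tap2 and Psmb8 in each library, with group means and SD. Tap1 (4.63 to 8.49 FPKM) and Psmb9 (4.51 to 8.17 FPKM) were above all other libraries in the betaine-supplemented knockout, and Tap2 and Psmb8 overlapped.

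The 4 class II genes did not separate the groups, and they varied together from library to library. H2-Aa, the alpha chain of the I-A molecule, had 15.2, 33.2 and 8.63 FPKM in the betaine-supplemented knockout, 17.9, 15.8 and 13.3 FPKM in the knockout, and 10.03, 12.1 and 21.9 FPKM in wild type. H2-Ab1, its beta chain, had 15.0, 40.4 and 11.5 FPKM in the betaine-supplemented knockout, 18.8, 15.2 and 13.8 FPKM in the knockout, and 14.6, 16.5 and 28.2 FPKM in wild type. In both genes betaine-supplemented replicate 2 was the highest library, wild type replicate 3 came next, and betaine-supplemented replicate 3 was the lowest. H2-Eb1, the beta chain of the I-E molecule, had 20.4, 44.8 and 11.1 FPKM in the betaine-supplemented knockout, 24.3, 20.1 and 17.4 FPKM in the knockout, and 14.8, 18.1 and 30.1 FPKM in wild type. Cd74, on chromosome 18 (chr18:60803848-60812652, mm10), had 45.8, 122 and 38.3 FPKM in the betaine-supplemented knockout, 58.3, 51.0 and 40.7 FPKM in the knockout, and 48.0, 47.5 and 90.2 FPKM in wild type. The same libraries were highest, next and lowest for H2-Eb1 and Cd74. The partner of H2-Eb1, annotated as the pseudogene H2-Ea-ps, was listed at 0 in all 9 libraries.

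The highest library exceeded the lowest by 3.19-fold for Cd74 to 4.04-fold for H2-Eb1, against 1.27-fold for H2-D1, 1.33-fold for H2-K1 and 1.61-fold for B2m. The within-group SD on the log2 scale was 0.62 to 0.66 for the class II genes, larger than in 93.7% to 94.5% of tested genes, whose median was 0.23. It was 0.11 for B2m, 0.13 for H2-K1 and 0.14 for H2-D1, larger than in 6.2% to 14.4% of tested genes. Over the 9 libraries the 6 pairs of class II genes had Pearson r of 0.91 to 0.99, and the ratio of any such pair varied by at most 1.59-fold. The 15 pairs of class I genes had r of -0.63 to 0.84. These r are descriptions over libraries of 3 groups that share their scaling. H2-Aa with H2-Eb1, and H2-Ab1 with Cd74, were the closest pairs, at r of 0.99 each. H2-Aa over H2-Ab1 was 1.01, 0.822 and 0.750 in the betaine-supplemented knockout, 0.953, 1.04 and 0.959 in the knockout, and 0.686, 0.730 and 0.775 in wild type. The knockout and wild-type libraries did not overlap in this ratio. Nor did they for H2-Eb1 over H2-Ab1 (1.26 to 1.33 in the knockout, 1.01 to 1.095 in wild type), while Cd74 over H2-Ab1 overlapped. Of single tested genes 46.8% did not overlap in this comparison, and no such share was computed for ratios.

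With that spread, no class II gene was called in any comparison. For knockout minus wild type the log2 differences were 0.16 for H2-Aa, -0.26 for H2-Ab1, 0.03 for H2-Eb1 and -0.25 for Cd74, with adjusted p-values of 0.679 to 0.973. For betaine-supplemented minus untreated knockout they ran from 0.08 for H2-Aa to 0.27 for H2-Ab1 and Cd74, and for betaine-supplemented knockout minus wild type from 0.02 for H2-Ab1 and Cd74 to 0.24 for H2-Aa. The 95% intervals were wide, for Cd74 -1.21 to 0.71 for knockout minus wild type and -0.69 to 1.23 for betaine-supplemented minus untreated knockout, and differences inside them were not detectable here. Single libraries set the signs. Without betaine-supplemented replicate 2 the 4 differences between betaine-supplemented and untreated knockout were -0.42, -0.25, -0.43 and -0.24 for H2-Aa, H2-Ab1, H2-Eb1 and Cd74. Without wild type replicate 3 the differences for knockout minus wild type were 0.48, 0.02, 0.31 and 0.05 in the same gene order.

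Markers of immune and endothelial cells moved with the class II levels in part. In bulk tissue, a change in the number of cells of a type and a change in RNA per cell cannot be told apart. The summed level of 11 Kupffer cell and macrophage markers, of which 11 were above 0, was 143.8, 320.2 and 259.2 FPKM in the betaine-supplemented knockout, 220.6, 225.0 and 175.7 FPKM in the knockout, and 230.7, 242.7 and 279.3 FPKM in wild type. Betaine-supplemented replicate 2 was the highest library, as for class II, but replicate 3, the lowest for class II, was above replicate 1. Within the betaine-supplemented group, 10 of 11 of these markers were highest in replicate 2. Over all 9 libraries, 4 of 11 were highest there and 4 of 11 in wild type replicate 3. The summed level of 10 T and NK cell markers was 1.86, 8.77 and 1.90 FPKM in the betaine-supplemented knockout, 2.67, 2.24 and 2.35 FPKM in the knockout, and 2.31, 4.05 and 2.95 FPKM in wild type. The single high library in this sum was again betaine-supplemented replicate 2. Of these 10 markers, 5 were highest there over the 9 libraries, and only 2 had enough signal to be tested. The 9 dendritic cell markers summed to 1.67 to 2.85 FPKM in the betaine-supplemented knockout, 2.97 to 3.25 FPKM in the knockout and 2.16 to 4.08 FPKM in wild type, and the 8 B cell markers to 23.2 to 30.0, 21.5 to 25.1 and 21.3 to 24.5 FPKM in that order of groups. The 7 sinusoidal endothelial markers summed to 22.9 to 36.9 FPKM in the betaine-supplemented knockout, 28.4 to 37.88 FPKM in the knockout and 37.91 to 67.6 FPKM in wild type, so wild type lay above both, and all 7 were highest in wild type replicate 3. Without that library wild type summed to 37.91 and 43.6 FPKM. The markers' median log2 difference was -0.56 for knockout minus wild type, with 1 of 7 called, Kdr, lower, beside 25.6% of all tested genes. It was -0.72 for betaine-supplemented knockout minus wild type, with 2 of 7 called, Clec4g and Fcgr2b, both lower, beside 11.7%. These medians and calls are given only with wild type replicate 3. In the other immune lists, 1 of 3 tested pan-leukocyte genes, Laptm5, was called lower for knockout minus wild type, beside 25.6% of all tested genes. For betaine-supplemented knockout minus wild type, 1 of 3 tested B cell genes, Ighm, was called higher, beside 11.7%. The median of those 3 B cell genes was -0.01. The part of these cells in the class II levels was not tested.

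**Figure D4:**
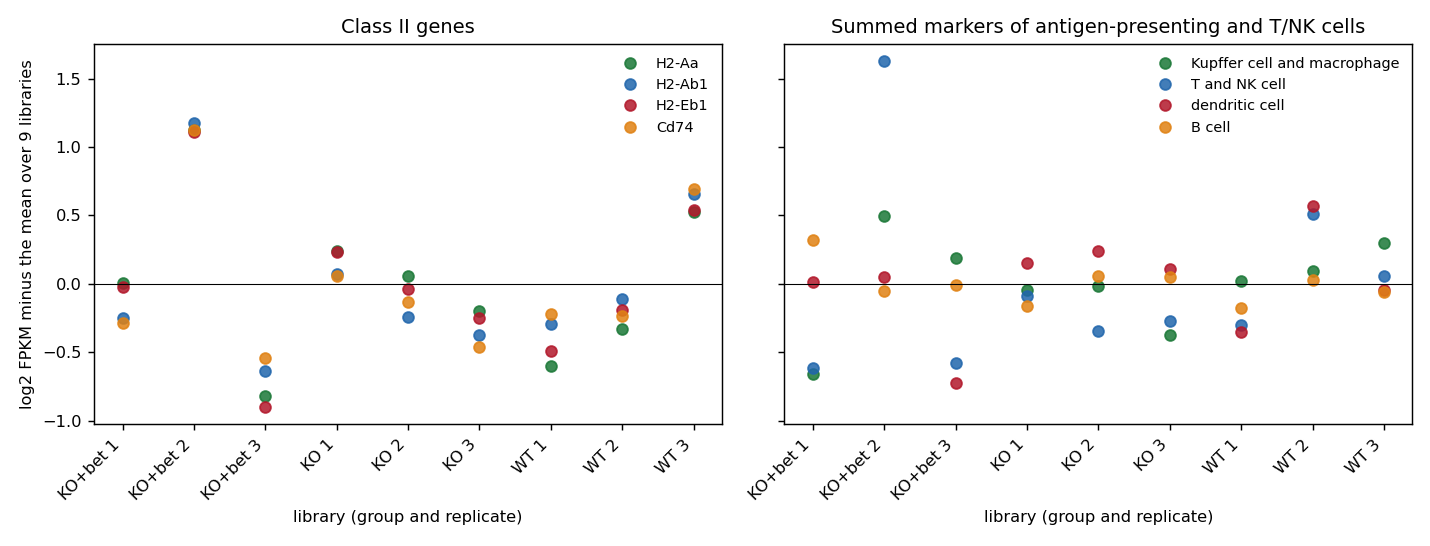
Left, log2 FPKM of the 4 class II genes in each library minus that gene's mean over 9 libraries; right, the same for summed markers of Kupffer cells and macrophages, T and NK cells, dendritic cells and B cells. Betaine-supplemented replicate 2 stood 1.1 log2 units or more above the mean for the class II genes. It was the highest library for the summed Kupffer and summed T and NK cell markers. The sums of B cell and dendritic cell markers were not highest there.

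Counted over the members, few passed the test. For knockout minus wild type, 0 of 10 were called by limma at an adjusted p under 0.05, beside 25.6% of all tested genes, and 1 of 10 had an unadjusted p under 0.05, beside 40.0%. Groups did not overlap for 1 of 10 members, B2m, beside 46.8% of tested genes. The median log2 difference of the members was -0.05, against 0.01 over all tested genes. For betaine-supplemented minus untreated knockout, 0 of 10 were called, beside 0.0422% of tested genes (5 genes), and 2 of 10, Tap1 and B2m, had an unadjusted p under 0.05, beside 22.5%. The same 2 members had groups that did not overlap, beside 30.3% of tested genes. For betaine-supplemented knockout minus wild type, 1 of 10 was called, Tap1, beside 11.7% of tested genes, 1 of 10 had an unadjusted p under 0.05, beside 30.5%, and 1 of 10 did not overlap, beside 32.2%. Without wild type replicate 3, 0, 1 and 1 of 10 were called in the 3 comparisons in this order, beside 21.7%, 2.3% and 12.0% of tested genes. The members' median was 0.10 for betaine-supplemented minus untreated knockout and 0.02 for betaine-supplemented knockout minus wild type, against 0.00 and 0.01 over all tested genes.

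**Figure D5:**
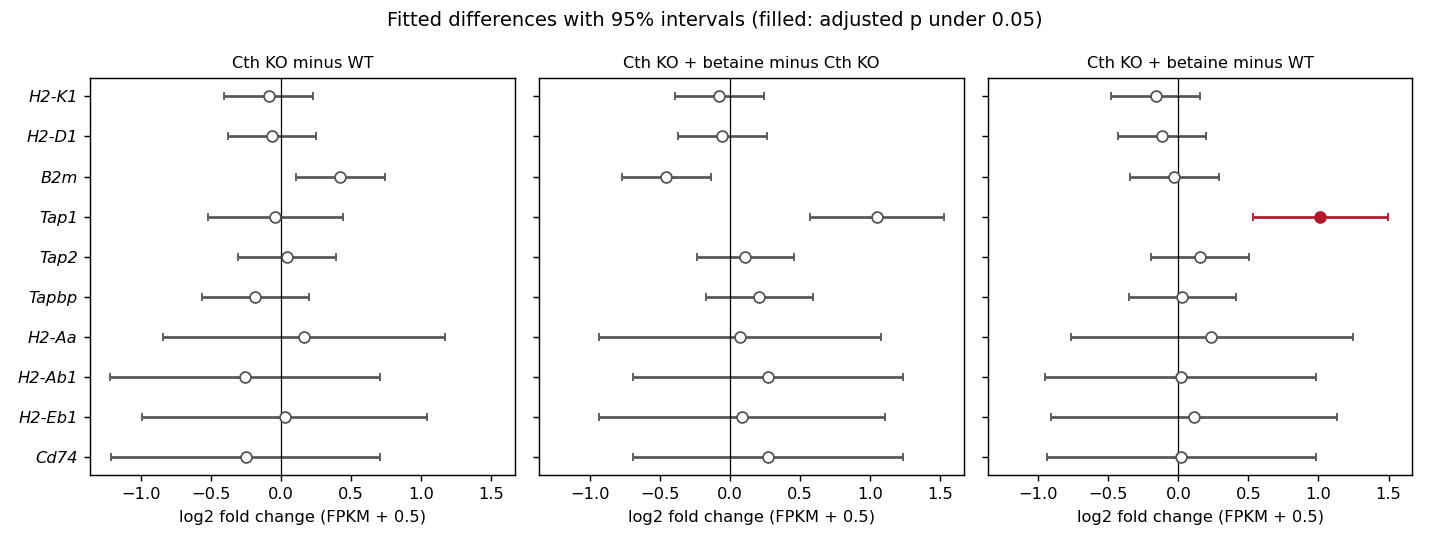
Fitted log2 fold change of FPKM + 0.5 (horizontal axis) with its 95% interval for each of the 10 genes in the 3 comparisons; filled points passed an adjusted p of 0.05. Only Tap1 in the betaine-supplemented knockout against wild type passed (1.01), B2m lay at 0.42 and -0.45 in the comparisons that involve the untreated knockout, and the intervals of the 4 class II genes were the widest.

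The rest of the pathway was read from 8 lists, with 72 genes beyond the members, of which 54 were tested. For knockout minus wild type 3 rose and 5 fell, 14.8% of those tested, beside 25.6% of all tested genes. The genes that rose were Psme1 and Psme2, the subunits of the interferon-inducible proteasome activator, and Calr, the endoplasmic reticulum chaperone calreticulin. Psme1 had 50.6, 55.8 and 57.3 FPKM in the knockout, against 26.1, 28.4 and 27.6 FPKM in wild type, a log2 difference of 0.98 ± 0.11 (adjusted p = 0.00546). Psme2 rose by 0.99 ± 0.16 (adjusted p = 0.00669) and Calr by 0.59 ± 0.17 (adjusted p = 0.0332). The groups did not overlap for any of the 3. The genes that fell were Erap1, which trims class I peptides (-0.93 ± 0.21, adjusted p = 0.0150), the chaperone gene Canx (-0.56 ± 0.16, adjusted p = 0.0330), and the interferon gamma receptor and kinase genes Ifngr1 (-0.47 ± 0.12, adjusted p = 0.0247), Jak1 (-0.74 ± 0.15, adjusted p = 0.00987) and Jak2 (-0.65 ± 0.18, adjusted p = 0.0312). Of the 14 genes of class I peptide supply and loading, members included, 3 rose, 2 fell and 9 did not pass, beside 25.6% of all tested genes called. Of these 14, 8 had an unadjusted p under 0.05, beside 40.0% of all tested genes. Of 10 tested genes of interferon gamma signalling 0 rose, 3 fell and 7 did not pass, beside that 25.6%, and 4 had an unadjusted p under 0.05, beside 40.0% of all tested genes. Leaving out any single library kept the calls of Psme1, Psme2 and Jak1. The other calls were lost in some of these 9 fits: Erap1 without knockout replicate 2 and Ifngr1 without knockout replicate 2 or 3 or wild type replicate 2 or 3. Canx lost its call without knockout replicate 2 or 3 or wild type replicate 1 or 2, Calr without any knockout library or wild type replicate 1 or 2, and Jak2 without any library of either group, with adjusted p-values of at most 0.124 in all of these fits. Other settings ended calls too, at adjusted p-values of 0.0518 to 0.366. Calr lost its call in TPM (0.17), after quantile normalization (0.32), with no filter and with the replicate block. Canx and Jak2 lost theirs with the length trend removed, with no filter and with the block, and Ifngr1 with no filter and with the block. With both the length trend and wild type replicate 3 removed, Erap1 (-0.50, adjusted p = 0.0792), Jak1 (-0.42, adjusted p = 0.0523), Calr, Canx and Jak2 were not called. Psme1 and Psme2 kept their calls in TPM, at 0.57 and 0.59, while Canx (-0.99), Ifngr1 (-0.89), Jak1 (-1.17) and Jak2 (-1.09) were further from 0 there.

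For betaine-supplemented minus untreated knockout, 0 of the 54 genes were called. Of the 14 genes of class I peptide supply and loading, members included, 7 had an unadjusted p under 0.05, beside 22.5% of all tested genes. They included Psme2 (-0.53 ± 0.16, adjusted p = 0.124). Psme2 had 16.6, 21.8 and 18.1 FPKM in the betaine-supplemented knockout, against 23.6, 29.0 and 29.8 FPKM in the knockout. Psme1 (-0.27, adjusted p = 0.201) was also lower, while Erap1 (0.62, adjusted p = 0.142), Psmb9 (0.70, adjusted p = 0.165) and Tap1 were higher. For betaine-supplemented knockout minus wild type, 2 rose and 1 fell, 5.56% of those tested, beside 11.7% of all tested genes. Besides Psmb9, Psme1 rose by 0.71 ± 0.11 (adjusted p = 0.00927). Creb1, whose product binds the cyclic AMP element, fell by 0.59 ± 0.13 (adjusted p = 0.0255). Psme1 kept its call with any single library left out, Psmb9 lost its call without betaine-supplemented replicate 2 or 3, knockout replicate 1 or wild type replicate 1 or 2, and Creb1 without betaine-supplemented replicate 1 or 3 or wild type replicate 1 or 2. Psmb9 also lost it with no filter (adjusted p = 0.0825), in TPM (0.0706) and with only the compared groups fitted (0.0703). Creb1 lost it with the length trend removed, where it stood at -0.31 (adjusted p = 0.155), or at -0.33 (adjusted p = 0.184) also without wild type replicate 3, and with no filter, only the compared groups or the replicate block (adjusted p = 0.0532 to 0.0732). Nlrc5, the class I transactivator, was low, at 1.24 to 1.82 FPKM in the betaine-supplemented knockout, 1.12 to 2.15 FPKM in the knockout and 0.940 to 2.23 FPKM in wild type, and was not called. Ciita, the class II transactivator, stood at 0.0934 to 0.3 FPKM over the 9 libraries and was too low to be tested. In 8 tested genes of class II peptide processing and loading, 5 class I-like genes and 3 costimulation genes, limma called 0 in every comparison. The shares over all tested genes were 25.6%, 0.0422% and 11.7%, with knockout minus wild type first and betaine-supplemented knockout minus wild type last. In that order of comparisons, 1, 0 and 2 of the 8, 1, 2 and 0 of the 5, and 0, 1 and 1 of the 3 had an unadjusted p under 0.05. Beside them stood 40.0%, 22.5% and 30.5% of all tested genes.

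Abundant genes of lists with fewer than 2 calls in a comparison stood as follows, the log2 differences being for knockout minus wild type unless another comparison is named, and none of them passing with all libraries. The cathepsin genes Ctsb and Ctsl, whose proteases act in lysosomes, were at -0.01 (adjusted p = 0.954) and 0.24 (adjusted p = 0.246). Azgp1, a secreted class I-like protein gene, had 927, 596 and 760 FPKM in the betaine-supplemented knockout, 1136, 1158 and 1128 FPKM in the knockout, and 869, 910.4 and 628 FPKM in wild type. The 3 knockout libraries lay above the other 6, with differences of 0.53 against wild type (adjusted p = 0.0808) and of -0.61 for betaine-supplemented minus untreated knockout (adjusted p = 0.137). Without wild type replicate 3 the Azgp1 difference against wild type was 0.36 (adjusted p = 0.189). The loading factor gene Pdia3 was at 0.36 (adjusted p = 0.121), and Nfyb and Nfyc, which encode subunits of the CCAAT-binding factor NF-Y, at -0.36 (adjusted p = 0.0991) and 0.36 (adjusted p = 0.171). Without wild type replicate 3 Nfyb stood at -0.485 (adjusted p = 0.0386). The costimulation genes Cd83 and Cd86 were low, at 0.366 to 2.21 and 0.308 to 1.33 FPKM over the 9 libraries, and both were highest in wild type replicate 3. Irf9 and Irf1, transcription factor genes of the interferon response, were at 0.54 (adjusted p = 0.0830) and 0.49 (adjusted p = 0.120) for betaine-supplemented knockout minus wild type, and Irf9 was at 0.71 (adjusted p = 0.0293) without wild type replicate 3.

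No other class I chain was called either: of 12 tested, members included, 0 passed in any comparison, and 4, 2 and 2 had an unadjusted p under 0.05 in the 3 comparisons, taken in the order above, beside 40.0%, 22.5% and 30.5% of all tested genes. The nearest in level to H2-K1 was H2-Q10, a secreted class I chain of liver, at 488, 435 and 508 FPKM in the betaine-supplemented knockout, 499, 460 and 512 FPKM in the knockout, and 410, 396 and 296 FPKM in wild type. Both knockout groups lay above wild type without overlap, with adjusted p-values of 0.0716 for the knockout and 0.132 for the betaine-supplemented knockout against wild type. Wild type replicate 3 was the lowest, and without it the adjusted p-values were 0.154 and 0.261. With the length trend removed H2-Q10 passed for knockout minus wild type (0.54, adjusted p = 0.0389), and in TPM it stood at 0.01 (adjusted p = 0.956).

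By the rule of highest correlation over the 9 libraries with the mean pattern of the class II members, the genes most alike were Cxcl9 (r = 0.96), Dpt (0.94), Ccdc80 (0.92), Ifi204 (0.92), H2-DMb1 (0.92) and Ccl5 (0.90). Cxcl9, a chemokine gene induced by interferon gamma, had 2.46, 7.66 and 1.65 FPKM in the betaine-supplemented knockout, 3.80, 3.23 and 2.85 FPKM in the knockout, and 2.27, 3.25 and 7.50 FPKM in wild type. H2-DMb1, part of the complex that exchanges class II peptides, had 1.76, 3.998 and 1.05 FPKM in the betaine-supplemented knockout, 2.59, 1.57 and 2.26 FPKM in the knockout, and 1.80, 1.72 and 3.20 FPKM in wild type. For both, betaine-supplemented replicate 2 and wild type replicate 3 were the high libraries, as for the class II members. Since the rule picked them for that likeness over these same libraries, this is no separate result. The genes most alike to the class I mean pattern were Gsdmd (0.96), Cnn2 (0.90), Tipin (0.86), Phf11b (0.86), Smoc2 (0.85) and Cnn3 (0.85). The class I members shared no single pattern, with r of -0.63 to 0.84 between pairs. Their mean spanned only -0.24 to 0.13 log2 units, so likeness to it is not likeness to each member.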

How the data were processed

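The authors deposited 1 table of FPKM for 54532 genes in 9 liver libraries, 3 per group. Per the labels' protocols, poly-A RNA was prepared with a NEBNext Ultra kit, with no strand stated. Tools named in the submitters' processing notes, with no role for each, are featureCounts 1.5.0-p3, HISAT2 2.0.5 and DESeq2 1.16.1, and the build is mm10. FPKM are not counts, so no count test was run. The filter kept 11852 genes whose mean reached 0.5 FPKM, tested as log2(FPKM + 0.5) in limma 3.58.1 under R 4.3.3 (lmFit, eBayes with trend and robust), all 9 libraries in 1 fit. The 3 contrasts were two-sided, adjusted by Benjamini-Hochberg over all tested genes, with a threshold of 0.05. Fold changes are on that log2 scale, which understates changes of low genes.

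GENCODE M21, annotated on the mm10 assembly, gave exon lengths. With them 98.3% to 98.6% of low values, up to 20 reads, lay within 0.05 of a whole read number, which gave the library denominators and reads per gene. Recovered totals were 15184940 to 17473762 reads, and sums of FPKM 373772.9 to 584197.3. Intervals from reads would cover counting error only. Same-numbered replicates did not deviate together.

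Named genes were the 10 members and, from 8 pathway lists, up to 4 genes per list and comparison past the threshold, or the 2 most abundant genes where fewer than 2 passed, with Nlrc5, Ciita, Irf1, H2-Q10 and H2-Ea whatever they did. Psmb8, Calr, Cd274, the values of Psme1, Psme2, Psmb9 and Erap1 outside their calls and the sex-linked genes were added after values were seen. The members, the lists and 12 lists of cell markers were chosen with earlier results of these data known, and 1 gene of the lists is not reported here or counted. The fit was tested on simulated data. There were 20 alternatives planned and 1 added after seeing the data. Python 3.11.15, numpy 2.4.6, pandas 2.3.3 and matplotlib 3.10.9 were used. Promoter sequences came from RefSeq (GRCm38.p6) and matched 7 of the 10 members, with chromosome 18, where Cd74 lies, left out of the search. The motif cores searched were set after longer forms of them had been matched to these windows.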

Additional observations from a re-analysis of the deposited data

How the results depend on the processing

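The first comparison here is knockout minus wild type, the second betaine-supplemented minus untreated knockout and the third betaine-supplemented knockout minus wild type; differences are on the log2 scale, and the cause of a change was not tested unless the setting's own construction shows it. Over alternatives that kept all libraries or joined 2 choices, 328 member values kept their direction and their side of the threshold, 22 changed sign, 7 newly passed and 3 no longer passed; with 1 library left out these numbers were 232, 31, 4 and 3. Members called in the first comparison numbered 0, but 2 in TPM, 1 after quantile normalization, 1 with only the compared groups fitted, 1 without limma's trend and robust options and 0 to 1 with 1 library left out. In the second they numbered 0, but 1 in TPM, 1 with the length trend and wild type replicate 3 both removed (a setting added after seeing the data) and 0 to 1 with 1 library left out; in the third 1, but 0 with no filter, in TPM or with only the compared groups, and 0 to 1 with 1 library left out. Over all genes, calls in the first comparison numbered 3029, but 1865 with no filter, 1862 with length trend and wild type replicate 3 removed and 896 (without knockout replicate 2) to 3231 with 1 library left out. In the second they numbered 5, but 8 and 10 with pseudocounts of 0.1 and 1, 1 with no filter, 1754 in TPM, 35 with only the compared groups, 0 without trend and robust options, 203 with length trend and wild type replicate 3 removed and 0 to 878 (without betaine-supplemented replicate 1) with 1 library left out. In the third they numbered 1381, but 531 with no filter, 353 with only the compared groups and 351 (without betaine-supplemented replicate 3) to 1441 with 1 library left out. Same-numbered replicates did not deviate together (r of -0.227 to 0.098 over 9 pairs), beside r of -0.137 to 0.263 over 18 pairs of unlike number. With so few libraries this check cannot show whether a shared number marks a shared batch, and the labels do not say. With the replicate block 2210, 0 and 671 genes were called. TPM moved the median of all tested genes by -0.36, 0.33 and -0.04 in the 3 comparisons, and the share of higher genes among those called was 13.8% in TPM against 50.1% in FPKM in the first and 95.8% against 40% in the second. In TPM the sign changed in the first comparison for H2-Aa (-0.25), H2-Eb1 (-0.39), Tap2 (-0.35), Irf1 (-0.21) and Nlrc5 (-0.11), in the second for H2-K1 (0.29), H2-D1 (0.31), H2-Q10 (0.33) and Nlrc5 (0.20), and in the third for Cd74 (-0.034), H2-Ab1 (-0.039) and Tapbp (-0.025). After quantile normalization it changed for H2-Eb1 (-0.079) and Tap1 (0.003) in the first, H2-K1 (0.23), H2-D1 (0.19) and H2-Q10 (0.25) in the second, and Cd74 (-0.10), H2-Ab1 (-0.03) and Tapbp (-0.067) in the third. With the length trend removed it changed for H2-Eb1 (-0.21) and Tap1 (0.15, and 0.29 also without wild type replicate 3) in the first, and for Cd74 (-0.16), H2-Ab1 (-0.10), H2-Eb1 (-0.045) and Tapbp (-0.005) in the third. With 1 library left out, signs also changed within these ranges. In the first comparison they were Cd74 -0.41 to 0.05, H2-Aa -0.063 to 0.48, H2-Ab1 -0.44 to 0.022, H2-Eb1 -0.19 to 0.31, H2-D1 -0.17 to 0.008, Tap1 -0.16 to 0.12 and Tap2 -0.081 to 0.16. In the second they were Cd74 -0.24 to 0.59, H2-Aa -0.42 to 0.52, H2-Ab1 -0.25 to 0.63, H2-Eb1 -0.43 to 0.56, H2-Q10 -0.088 to 0.024, Nlrc5 -0.31 to 0.05 and Tap2 -0.009 to 0.22. In the third they were B2m -0.11 to 0.07, Cd74 -0.49 to 0.34, H2-Aa -0.26 to 0.68, H2-Ab1 -0.51 to 0.37, H2-Eb1 -0.40 to 0.58, Nlrc5 -0.065 to 0.40 and Tapbp -0.16 to 0.15. Depth limits genes near the 3-read floor, while for the members the number of libraries limits precision. Ciita had 14 to 53 reads in a library over 9535 exon bases, and went untested because its mean was under the filter of 0.5 FPKM.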

Other observations

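Over the stretch of chromosome 17 from Tapbp to H2-D1 (chr17:33915899-35267499), 62 genes were tested. For knockout minus wild type 10 rose and 4 fell (22.6%), for betaine-supplemented minus untreated knockout limma called 0, and for betaine-supplemented knockout minus wild type 3 rose and 1 fell (6.45%). These shares are given beside 25.6%, 0.0422% and 11.7% of all tested genes.

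Cd274, which encodes the checkpoint ligand PD-L1, had 0.672, 1.95 and 0.687 FPKM in the betaine-supplemented knockout, 0.613, 0.253 and 0.315 FPKM in the knockout, and 0.245, 0.343 and 0.580 FPKM in wild type. Cd274 was low, at percentile 5.1 of tested genes, with 13 to 131 reads in a library. The betaine-supplemented libraries lay above the other 6, narrowly at 41 reads in replicate 1 against 30 in knockout replicate 1, and replicate 2 was the highest. The differences of 0.77 against the knockout and 0.78 against wild type did not pass (adjusted p = 0.192 and 0.133). Cd1d1, the class I-like chain that presents lipids to NKT cells, had 112, 102 and 99.3 FPKM in the betaine-supplemented knockout, 79.3, 70.5 and 85.2 FPKM in the knockout, and 83.1, 79.1 and 97.6 FPKM in wild type. It was also above the other 6 libraries in the betaine-supplemented knockout, with differences of 0.41 (adjusted p = 0.134) and 0.27 (adjusted p = 0.207). Groups did not overlap for 30.3% and 32.2% of all tested genes in these comparisons against the knockout and against wild type.

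Other marker lists gave these summed levels. The 4 pan-leukocyte markers summed to 7.89 to 15.4 FPKM in the betaine-supplemented knockout, 7.72 to 9.16 FPKM in the knockout and 10.2 to 14.5 FPKM in wild type. The 5 monocyte markers summed to 34.1 to 77.5, 40.7 to 52.5 and 54.8 to 63.0 FPKM in that order of groups, the 6 stellate cell markers to 22.2 to 37.2, 23.9 to 30.3 and 16.1 to 45.5 FPKM, and the 5 cholangiocyte markers to 2.56 to 4.49, 2.61 to 5.13 and 4.83 to 6.01 FPKM. The 5 pancreas markers summed to 8.26 to 12.8 FPKM in the betaine-supplemented knockout, 11.9 to 14.5 FPKM in the knockout and 5.54 to 6.42 FPKM in wild type. Of these, Cpa1, Pnlip and Amy2a5 were listed at 0 in every library, and Cela1, the only 1 tested, was called higher in the knockout (1.03) and in the betaine-supplemented knockout (0.79) against wild type. The 4 adipose markers summed to at most 5.44 FPKM.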
